A study of Homo sapiens with 21 samples.

Results

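The neurotrophin system is represented here by 7 genes: the TRK receptors NTRK2 (TrkB) and NTRK3 (TrkC), the p75 receptor NGFR, the sortilin family receptors SORT1 and SORCS1, and the ligands BDNF and NTF3 (neurotrophin-3). A chromatin site was included when the deposited annotation gave 1 of these genes as its nearest gene, which selected 237 of the 367900 sites of the consensus set. SORCS1 held 132 of the sites, BDNF 43, NTRK3 34, NTF3 12, NTRK2 10, SORT1 4 and NGFR 2. A site carries the name of the gene with the closest annotated start, and may regulate another.

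Neurotrophins are secreted growth factors that support the survival, differentiation and connections of neurons. The mature ligands signal through TRK receptor tyrosine kinases, BDNF mainly through NTRK2 and NTF3 mainly through NTRK3, whereas NGFR binds all neurotrophins and, together with sortilin (SORT1), binds their uncleaved precursors. SORCS1 belongs to the sortilin family and sorts membrane proteins inside neurons. In neuroblastoma, a tumour of the developing sympathetic nervous system, TRK receptors are known for their links with differentiation and with outcome. BDNF is transcribed from several alternative first exons that are spliced to 1 shared coding exon.

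SK-N-BE(2) cells, an established line from human neuroblastoma, were profiled by ATAC-seq, an assay in which Tn5 transposase places adapters in accessible DNA. Cells of all 7 groups were transduced with lentivirus encoding short hairpin RNAs (shRNAs) and harvested after 72 h. The groups, with 3 libraries each, were Control, which the study describes as a non-silencing shRNA, shARID1A.2 and shARID1A.4 against ARID1A, shARID1B.2 and shARID1B.3 against ARID1B, and the combinations shARID1A/B.2.3 and shARID1A/B.4.2 against both genes, which encode alternative subunits that give the BAF chromatin remodeller its structure. As their names read, shARID1A/B.2.3 joins shARID1A.2 with shARID1B.3, and shARID1A/B.4.2 joins shARID1A.4 with shARID1B.2. The labels do not say whether the libraries of a group came from separate cultures, so p-values measure the spread between these libraries, which may be technical. ATAC-seq gives no RNA level, and the silencing of ARID1A and ARID1B was therefore not checked in these libraries.

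Libraries held 16140029 to 44472230 reads in sites, and deeper libraries carry less counting error. Accessibility is given as CPM, reads at a site per 1000000 of the TMM-scaled library total, with its SD over 3 libraries. Sites with a false discovery rate (FDR) under 0.01 in the edgeR quasi-likelihood test were called, closed when lower and opened when higher, with adjustment over all 357029 sites tested. Log2 changes are given with their standard error (SE). Of the 237 sites 233 passed the filter on low counts; the 4 others were 2 of BDNF, 1 of NTRK3 and 1 of NTF3. Combined silencing refers to the mean of both combinations against Control. The cell line was checked by accessible start sites of marker genes: 7 of 9 adrenergic neuroblastoma genes and 5 of 8 mesenchymal ones had a tested site within 1000 bases of their start, against 0 of 4 blood genes, 2 of 3 epithelial genes and 2 of 5 Schwann cell and glial genes. Summed over a list, adrenergic start sites ranged from 119 to 137 CPM in Control and from 119 to 155 CPM in the combinations, mesenchymal ones from 123 to 125 and from 122 to 137 CPM, epithelial ones from 8.26 to 10.1 and from 10.4 to 16.8 CPM, and glial ones from 2.84 to 3.99 and from 2.39 to 3.45 CPM. The part of these shifts in the results was not tested.

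The DNA of the sites on which the results turn is printed first. Each of the first 4 entries is the middle 300 bases of a site that lost accessibility, on the plus strand of GRCh38. They are shown because these distal sites hold the strongest falls of the named sites with at least 1 CPM in SORCS1, NTRK3 and BDNF. Capitals mark matches, on either strand, to the 6 motifs searched: TGANTCA of AP-1, AGATAA of GATA factors, CAGCTG as a first E-box, CACGTG as a further E-box, TAATTA of homeobox factors and TGACGT, the core of the cAMP response element.
SORCS1 intron, chr10:106746917-106747216: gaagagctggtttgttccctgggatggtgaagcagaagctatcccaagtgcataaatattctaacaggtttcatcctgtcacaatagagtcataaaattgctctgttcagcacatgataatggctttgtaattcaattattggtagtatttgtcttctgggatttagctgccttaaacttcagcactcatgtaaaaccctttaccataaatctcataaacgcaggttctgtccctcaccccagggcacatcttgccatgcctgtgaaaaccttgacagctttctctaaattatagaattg
SORCS1 intron, chr10:106816634-106816933: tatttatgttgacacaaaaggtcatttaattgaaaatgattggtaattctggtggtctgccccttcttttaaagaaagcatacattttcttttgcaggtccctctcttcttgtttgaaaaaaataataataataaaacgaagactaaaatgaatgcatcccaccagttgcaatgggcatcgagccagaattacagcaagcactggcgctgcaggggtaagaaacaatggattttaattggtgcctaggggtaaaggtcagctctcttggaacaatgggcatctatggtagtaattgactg
NTRK3 intron, chr15:88120206-88120505: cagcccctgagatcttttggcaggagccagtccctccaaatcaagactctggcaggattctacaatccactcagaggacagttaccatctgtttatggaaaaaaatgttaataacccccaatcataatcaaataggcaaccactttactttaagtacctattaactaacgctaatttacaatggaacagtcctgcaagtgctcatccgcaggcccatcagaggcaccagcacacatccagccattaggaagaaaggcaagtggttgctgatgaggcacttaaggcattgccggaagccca
BDNF intron, chr11:27673745-27674044: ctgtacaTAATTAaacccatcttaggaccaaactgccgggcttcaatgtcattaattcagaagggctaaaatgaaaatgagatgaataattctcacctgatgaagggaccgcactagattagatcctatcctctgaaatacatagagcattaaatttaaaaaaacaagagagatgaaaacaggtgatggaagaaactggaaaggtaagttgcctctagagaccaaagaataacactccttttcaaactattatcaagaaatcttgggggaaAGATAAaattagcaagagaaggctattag
None of the motifs was matched in the SORCS1 and NTRK3 windows. The BDNF intron window held 1 homeobox and 1 GATA match. Their GC content was 40.3% and 38.7% for SORCS1, 46% for NTRK3 and 36% for the BDNF intron.

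The next 3 entries are BDNF promoters from RefSeq (GRCh38.p14), 250 bases before to 50 after a transcript start, on the minus strand, which is the coding strand of BDNF. The first lies inside the opened site with the larger rise, the second overlaps the other opened site, and the third overlaps a promoter site that did not pass the threshold.
BDNF promoter, chr11:27719517-27719816: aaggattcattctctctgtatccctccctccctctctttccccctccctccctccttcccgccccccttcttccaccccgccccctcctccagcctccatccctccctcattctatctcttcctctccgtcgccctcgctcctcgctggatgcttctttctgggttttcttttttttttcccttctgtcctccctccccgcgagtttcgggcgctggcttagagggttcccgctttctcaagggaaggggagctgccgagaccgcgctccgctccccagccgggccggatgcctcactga
BDNF promoter, chr11:27721981-27722280: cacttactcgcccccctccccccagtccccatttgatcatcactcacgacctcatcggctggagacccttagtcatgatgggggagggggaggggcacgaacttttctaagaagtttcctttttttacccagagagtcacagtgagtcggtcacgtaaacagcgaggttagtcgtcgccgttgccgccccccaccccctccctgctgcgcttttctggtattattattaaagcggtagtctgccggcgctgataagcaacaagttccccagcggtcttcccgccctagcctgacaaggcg
BDNF promoter, chr11:27701572-27701871: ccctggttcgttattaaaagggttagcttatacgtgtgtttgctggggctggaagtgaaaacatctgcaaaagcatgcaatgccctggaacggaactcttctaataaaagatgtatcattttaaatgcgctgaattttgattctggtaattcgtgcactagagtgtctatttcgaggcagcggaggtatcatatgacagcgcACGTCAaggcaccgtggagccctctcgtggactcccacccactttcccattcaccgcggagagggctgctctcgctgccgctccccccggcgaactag
The third promoter carries 1 match to the cAMP response element core, at base 203, and the other two carry no match. Of all 35116 RefSeq promoters of the same length, 7.98% held this core, 7.71% the AP-1 motif, 10.3% the GATA motif, 17.9% the E-box CAGCTG, 7.26% the E-box CACGTG and 4.84% the homeobox motif. GC content was 61.7%, 56.7% and 50.7% in the 3 promoters.

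After combined silencing 27 of the 233 sites were closed, which is 11.6% of them beside 10.3% of all tested sites. The 2 opened sites make 0.858%, beside 3.43% of all tested sites. The closed sites were 19 of 132 in SORCS1, 4 of 41 in BDNF, 3 of 33 in NTRK3 and 1 of 10 in NTRK2, and both opened sites were in BDNF. NGFR, SORT1 and NTF3, with 2, 4 and 11 tested sites of their name, had no call, while 1, 3 and 2 of these sites had an unadjusted p under 0.05 in the same edgeR test. In the GENCODE body of NGFR 2 of 3 tested sites of any name were closed. The median log2 change was -0.06 over the 233 sites and 0.03 over all tested sites. With scaling factors taken from promoter sites alone, the median over all tested sites moved to -0.20, with 47 closed sites and 1 opened among the 233, so that every rise below is relative to the scaling over all sites. All 6 combination libraries lay below all 3 Control libraries at 32 of the 233 sites (13.7%) and at 10.8% of all tested sites; 23 of the 27 closed sites, which were chosen by this difference, were among them.

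The closed sites were mostly intronic, and no promoter was among them. Of 161 tested intronic sites 23 were closed and 1 opened, and 12% of all tested introns were closed. Of 62 intergenic sites 2 were closed, where all tested intergenic sites gave 9.39%. Of the 4 tested promoter sites none was closed and 1 opened, whereas 33.4% of all tested promoter sites were opened and 4.24% closed. The remaining calls were 1 exon and the transcript end of BDNF.

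Closed sites were also the stronger ones. Their median was 3.55 CPM over the 21 libraries, against 0.763 CPM at sites without a call, and their median length 1309 against 634 bases. Of the 22 sites with at least 5 CPM 13 were closed, of 75 between 1 and 5 CPM 10, and of 136 under 1 CPM 4. The shares over all tested sites in these ranges were 26.7%, 14.1% and 3.77%. More reads give the test more power, so calls among weak sites are limited by depth.

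**Figure D1:**
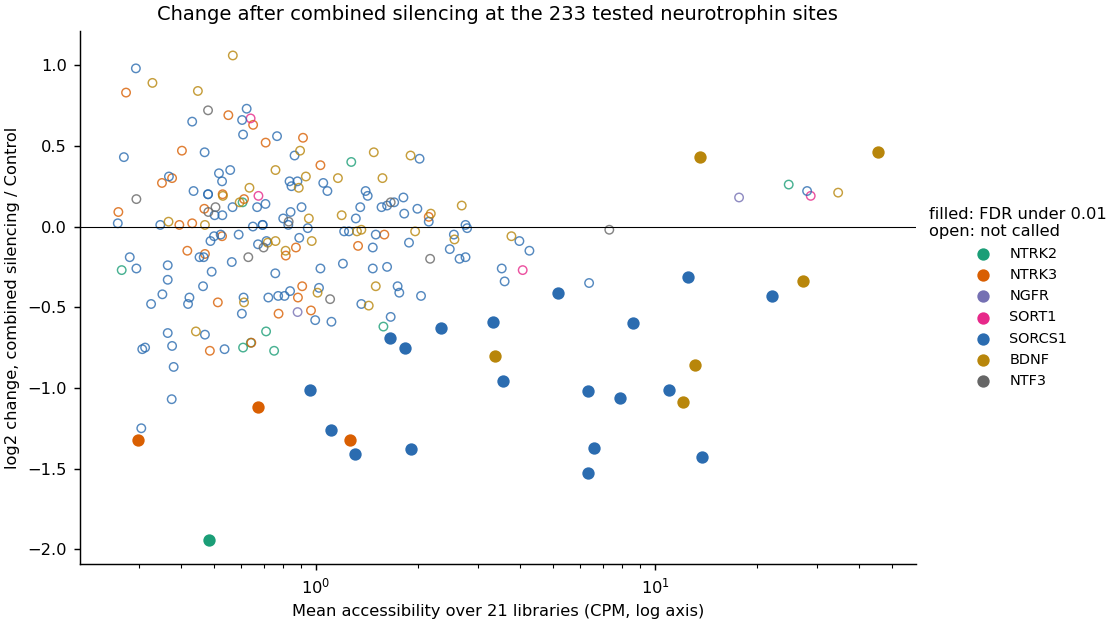
Each point is 1 of the 233 tested sites, placed by its mean accessibility over 21 libraries (CPM, log axis) and its log2 change after combined silencing; filled points passed FDR under 0.01 and colours give the gene. Calls lie mostly at falls above 1 CPM in SORCS1 (blue), and the 2 filled points above the zero line are BDNF sites.

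SORCS1, the sortilin family receptor, lost accessibility at some sites spread over a wide stretch of its introns. The 19 closed sites were 14.4% of its tested sites, beside 10.3% of all tested sites. Averaged over the combinations, they fell by 0.31 to 1.53 on the log2 scale. At the site with the smallest averaged fall the combinations went opposite ways, as described below. Of the 19 closed sites, 17 were intronic, 22.7 to 417.5 kb from the annotated start, and 2 were intergenic. SORCS1 had 102 tested intronic sites, and 12% of all tested introns were closed. Among SORCS1 sites of at least 5 CPM 10 of 12 were closed, and among such sites of the other 6 genes 3 of 10. Over all tested sites of at least 5 CPM the share was 26.7%. These counts mix start sites with introns, and 4.24% of all tested promoter sites but 12% of all tested introns were closed. The part of site class in this contrast was not tested. The closed sites made up 50.8% of the summed Control accessibility of the gene.

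Summed over its 132 tested sites, SORCS1 measured 312, 321 and 304 CPM in the Control libraries. With shARID1A/B.2.3 the sum was 228, 231 and 228 CPM, and with shARID1A/B.4.2 it was 253, 254 and 248 CPM. All 6 combination libraries lay below all Control libraries, and shARID1A/B.2.3 was the lower combination. The single shRNAs were also below Control: shARID1A.2 gave 247 ± 5.76 CPM, beside 252 ± 3.41 for the combination shARID1A/B.4.2, and shARID1A.4 280 ± 3.67, shARID1B.2 282 ± 4.26 and shARID1B.3 288 ± 9.82 (SD, n = 3). The sum over the SORCS1 sites not called closed was 154 ± 1.07 CPM in Control, 141 ± 1.02 with shARID1A/B.2.3 and 161 ± 3.36 with shARID1A/B.4.2. The 2 combinations thus moved to opposite sides of Control over the uncalled sites, and the choice of sites by their call means that no test applies to this split.

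The largest fall among SORCS1 sites was in intron 3, at chr10:106816119-106817447 (GRCh38), 347.8 kb from the annotated start. The Control libraries gave 10.5, 11.1 and 9.70 CPM. With shARID1A/B.2.3 the site measured 2.53, 2.49 and 2.86 CPM, and with shARID1A/B.4.2 5.69, 5.06 and 4.31 CPM. The groups did not overlap, and the combined log2 change was -1.53 ± 0.11 (SE; edgeR FDR = 2.40e-22). The fall was deeper with shARID1A/B.2.3 than with shARID1A/B.4.2, by 0.95 on the log2 scale (edgeR FDR = 3.40e-07). Among the single shRNAs shARID1A.2 gave 4.12 ± 0.413 CPM, shARID1B.3 6.15 ± 0.541, shARID1A.4 7.24 ± 0.992 and shARID1B.2 8.84 ± 0.0686 (SD, n = 3). Both combinations lay below each of the shRNAs in their names, with log2 differences of -0.54 to -1.25 and edgeR FDR between 1.37e-12 and 0.00593.

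The SORCS1 site with the highest accessibility per kb was in intron 5, at chr10:106746623-106747510, 417.5 kb from the start. Its Control libraries gave 19.9, 23.2 and 19.8 CPM. It fell to 5.84, 8.11 and 6.55 CPM with shARID1A/B.2.3 and to 8.74, 8.61 and 8.95 CPM with shARID1A/B.4.2, a combined log2 change of -1.43 ± 0.09 (edgeR FDR = 5.66e-25). Every single shRNA library was below every Control library, at 10.1 ± 0.613 CPM for shARID1A.2 and between 15.9 and 17.1 CPM on average for the other three. The fall with shARID1A.2 was larger than with shARID1A.4 by 0.76 on the log2 scale (edgeR FDR = 1.22e-07). Combined silencing went below the mean of the single shRNAs by -0.92 ± 0.07 log2 (edgeR FDR = 3.04e-19).

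The start site of SORCS1 did not share in the loss. At chr10:107163144-107165351, which holds exon 1 with its UTR, the Control libraries gave 26.1, 26.9 and 25.3 CPM. The libraries of shARID1A/B.2.3 gave 26.0, 29.3 and 25.9 CPM, which overlap with Control, and those of shARID1A/B.4.2 gave 35.0, 33.9 and 33.6 CPM, which do not. The rise with shARID1A/B.4.2 alone was 0.39 ± 0.09 log2 (edgeR FDR = 7.98e-04) and 0.06 (edgeR FDR = 0.629) when scaled on promoter sites. The combined log2 change was 0.22 ± 0.08 (edgeR FDR = 0.0382) and turned to -0.01 with that scaling.

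**Figure D2:**
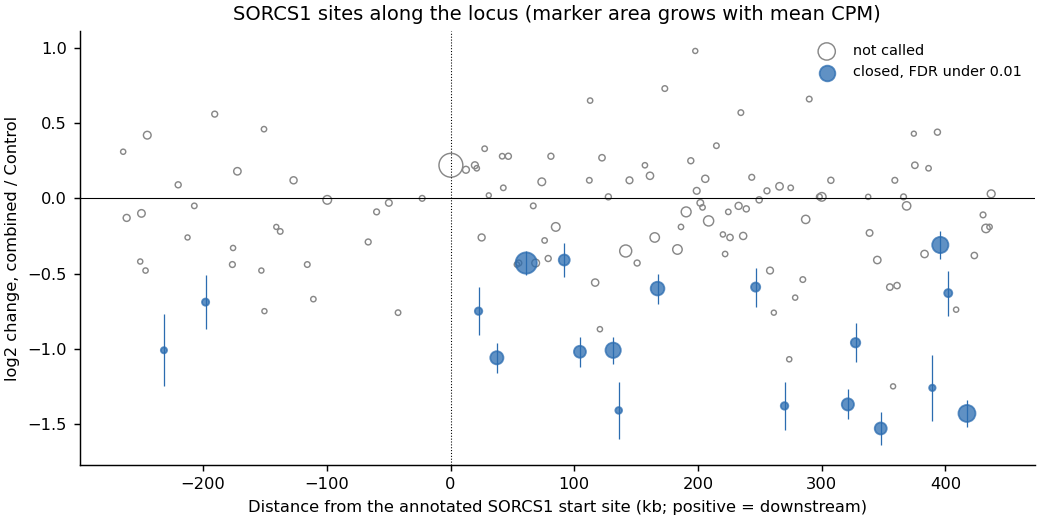
The 132 tested SORCS1 sites by distance from the annotated start (kb) and log2 change after combined silencing; marker area grows with mean CPM, filled blue points are closed with bars of 1 SE, and grey circles were not called. Most closed sites lie downstream of the start, out to 417.5 kb, while the start site itself is at 0.22 (-0.01 when scaled on promoter sites).

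At 1 SORCS1 site the combinations went opposite ways, so that its averaged call does not describe either. This site, chosen here after its values were seen, lies in intron 4 at chr10:106768026-106769212. Control gave 13.4, 14.5 and 11.9 CPM. With shARID1A/B.2.3 accessibility was 17.3, 18.8 and 14.9 CPM, and with shARID1A/B.4.2 it was 7.08, 6.81 and 6.21 CPM. The first rose by 0.37 log2 (edgeR FDR = 0.00379), the second fell by 0.98 (edgeR FDR = 2.18e-11), and the averaged change was -0.31 ± 0.09 (edgeR FDR = 0.00961). The averaged call was lost in 7 of the 9 fits that left out 1 library, most without Control replicate 2 (-0.20, edgeR FDR = 0.183), as well as in DESeq2 (-0.30, FDR = 0.0184), with median-of-ratios size factors, without the filter and with only the groups compared. The rise with shARID1A/B.2.3 was lost when scaled on promoter sites (0.23, edgeR FDR = 0.0808), with only the groups compared (0.36, edgeR FDR = 0.0241) and without Control replicate 1, Control replicate 3 or shARID1A/B.2.3 replicate 2. The fall with shARID1A/B.4.2 kept its call in every alternative run for it. The single shRNAs against ARID1B split in the same manner, with 20.2 ± 0.972 CPM for shARID1B.3 and 8.69 ± 0.413 CPM for shARID1B.2 (SD, n = 3).

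Sites that carry the name of BDNF, the main ligand of NTRK2, changed in both directions. Of its 41 tested sites 4 were closed (9.76%) and 2 opened (4.88%). These shares are near the 10.3% and 3.43% of all tested sites. The closed sites were an exon, an intron, a site in an intron of the antisense gene BDNF-AS and a site near the transcript end. The opened sites lay at upstream alternative starts.

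The BDNF exon site, chr11:27658269-27659577, overlaps exons of BDNF and BDNF-AS and BDNF UTR in GENCODE. The Control libraries gave 17.8, 18.2 and 17 CPM. The combinations gave 10.2, 10.8 and 9.58 CPM for shARID1A/B.2.3 and 9.54, 8.88 and 9.0 CPM for shARID1A/B.4.2, a combined log2 change of -0.86 ± 0.09 (edgeR FDR = 1.86e-14). Of the single shRNAs, shARID1A.4 (10.1, 9.29 and 11 CPM) and shARID1B.3 (9.96, 9.90 and 10.3 CPM) were as low as the combinations. By contrast, shARID1A.2 (16.5, 18.3 and 16.3 CPM) and shARID1B.2 (18.3, 16.3 and 17.4 CPM) overlapped with Control. The shRNAs of 1 gene therefore differed, by 0.76 log2 for ARID1A (edgeR FDR = 4.03e-08) and by 0.79 log2 for ARID1B (edgeR FDR = 1.13e-09).

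Each combination contains, by its name, 1 shRNA that lowered this exon and 1 that did not. Against the lowering shRNA the combinations differed by 0.03 log2 (shARID1A/B.2.3 and shARID1B.3, edgeR FDR = 0.88) and by -0.14 (shARID1A/B.4.2 and shARID1A.4, edgeR FDR = 0.653). Against the other shRNA they were lower by -0.73 (edgeR FDR = 2.00e-08) and by -0.92 (edgeR FDR = 4.22e-11). The averages over both shRNAs, -0.43 for ARID1A and -0.42 for ARID1B, describe neither shRNA of the pair.

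The BDNF intron site, chr11:27672914-27674874, which in GENCODE overlaps an exon and UTR of other BDNF transcripts, had no such split. Control gave 19.8, 19.8 and 16.4 CPM. The single shRNAs averaged 12.8 ± 0.262 (shARID1A.2), 12.1 ± 1.16 (shARID1A.4), 12.6 ± 0.839 (shARID1B.2) and 11 ± 1.08 CPM (shARID1B.3; SD, n = 3), all called closed in edgeR with FDR between 1.39e-08 and 1.10e-04. The combinations gave 7.78, 8.06 and 7.56 CPM for shARID1A/B.2.3 and 8.38, 11.7 and 9.32 CPM for shARID1A/B.4.2. The combined log2 change was -1.09 ± 0.09 (edgeR FDR = 5.75e-18), and -0.47 ± 0.07 against the mean of the single shRNAs (edgeR FDR = 1.04e-07).

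The opened BDNF site, chr11:27717489-27720725, is intronic in the deposited annotation but holds exon sequence and 2 BDNF start positions in GENCODE, and is the most accessible of the 233 sites. Control gave 34.7, 36.2 and 34.6 CPM. It measured 63.4, 61.7 and 59.4 CPM with shARID1A/B.4.2 but 37.8, 39.9 and 36.5 CPM with shARID1A/B.2.3, so that both lay above Control and only the former by a wide margin. The rise was 0.81 ± 0.08 log2 with shARID1A/B.4.2 (edgeR FDR = 6.05e-14) and 0.12 ± 0.08 with shARID1A/B.2.3 (edgeR FDR = 0.341), and the difference passed the test (edgeR FDR = 5.85e-11). The single shRNAs named in the higher combination were the higher ones, at 56.4 ± 1.84 CPM for shARID1A.4 and 49.4 ± 2.40 CPM for shARID1B.2, against 38.2 ± 1.34 CPM for shARID1A.2 and 39.6 ± 2.18 CPM for shARID1B.3 (SD, n = 3). The second opened site, a promoter at chr11:27722162-27723242, rose from 11.2 ± 0.302 CPM in Control to 13.6 ± 0.644 and 16.9 ± 1.11 CPM in the combinations, a combined log2 change of 0.43 ± 0.09 (edgeR FDR = 1.32e-04) that was 0.20 (edgeR FDR = 0.0811) when scaled on promoter sites. The promoter site with the cAMP response element core, chr11:27698804-27701846, gave 31.8 ± 0.733 CPM in Control and 37.2 ± 1.19 and 36.5 ± 0.618 CPM in the combinations, with a log2 change of 0.21 ± 0.07 that did not pass (edgeR FDR = 0.0261) and turned to -0.02 when scaled on promoter sites.

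At the transcript end of BDNF, chr11:27653407-27654742, accessibility was lower with ARID1B than with ARID1A silencing. This is the BDNF site with the highest accessibility per kb. Control gave 31.6, 34.9 and 29.4 CPM. The ARID1B shRNAs gave 23.9 ± 2.58 and 22.9 ± 1.10 CPM (log2 -0.45 ± 0.08, edgeR FDR = 1.13e-05), and the ARID1A shRNAs 28.5 ± 1.05 and 32.8 ± 0.298 CPM (-0.07 ± 0.08, edgeR FDR = 0.715), where SD is over 3 libraries. The difference between the genes was 0.38 ± 0.07 log2 (edgeR FDR = 6.27e-06). The combined change was -0.34 ± 0.08 (edgeR FDR = 4.32e-04), with shARID1A/B.4.2 at 22 ± 0.593 CPM, while shARID1A/B.2.3 gave 26.4, 33.9 and 25.9 CPM and overlapped with Control. The combined call was lost without Control replicate 2 (-0.25, edgeR FDR = 0.0382).

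**Figure D3:**
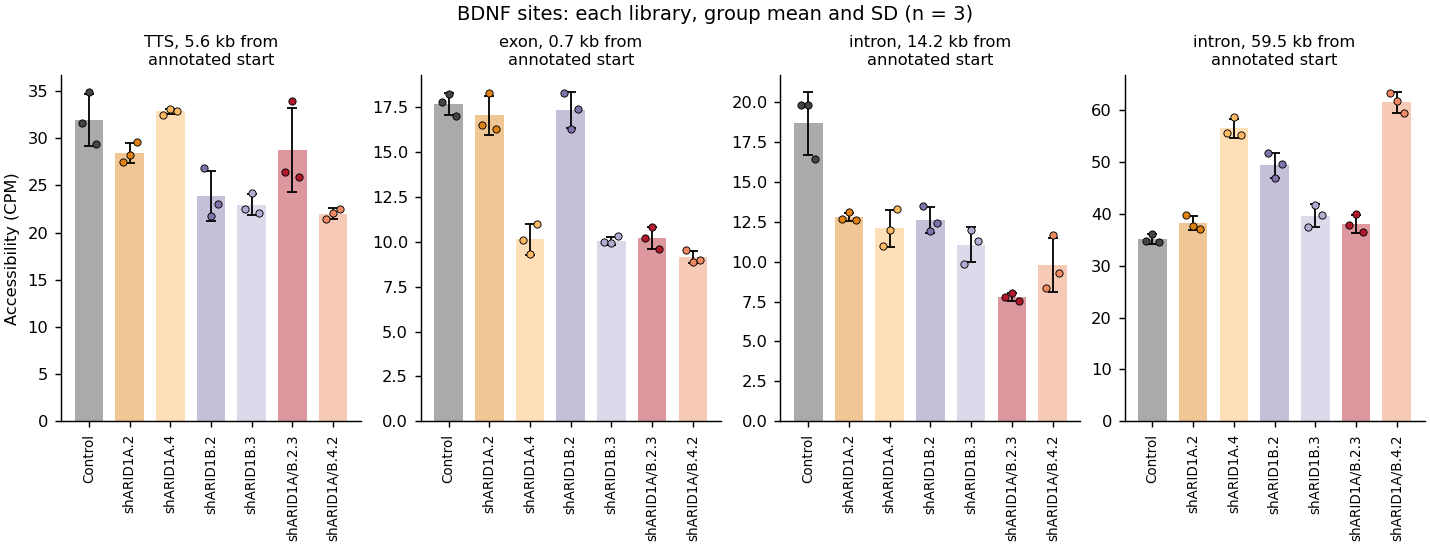
Accessibility (CPM) of 4 BDNF sites in each library (points), with bars for the group mean and lines for the SD over 3 libraries; titles give the annotation class and the distance from the annotated start. In the exon panel shARID1A.4, shARID1B.3 and both combinations lie near 10 CPM and the other groups near 17 CPM, and in the rightmost panel shARID1A.4, shARID1B.2 and shARID1A/B.4.2 stand above the rest.

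The NTRK2 promoter, at chr9:84667648-84670776 and holding exon and UTR sequence and 17 annotated starts, did not lose accessibility. Its Control libraries gave 23.0, 21 and 21 CPM, and those of the combinations 23.3, 22.8 and 23.7 CPM (shARID1A/B.2.3) and 28.7, 28.3 and 29.1 CPM (shARID1A/B.4.2). The combined log2 change of 0.26 ± 0.08 lay at the threshold (edgeR FDR = 0.0102), passed it in DESeq2 (0.27, FDR = 0.00373), with library totals, median-of-ratios size factors, no filter, only the groups compared or a replicate block (0.26, edgeR FDR = 0.00494) and without any 1 of 5 combination libraries, and was 0.02 (edgeR FDR = 0.862) when scaled on promoter sites. That of shARID1A/B.4.2 alone was 0.41 ± 0.09 (edgeR FDR = 2.30e-04), or 0.09 (edgeR FDR = 0.448) with the latter scaling. Of 21 tested sites of any name in the GENCODE body of NTRK2, 5 were closed and 1 opened, where 10.3% and 3.43% of all tested sites were. The single call among sites that carry the name NTRK2 was a weak site in intron 14, chr9:84867315-84867741. This intron site was outside the rule for named sites because of its low mean of 0.483 CPM, and was described after its values were seen. It gave 1.20, 0.986 and 0.842 CPM in Control and 0.209 to 0.361 CPM over the 6 combination libraries, with no overlap and the largest fall of the 233 sites, -1.94 ± 0.29 log2 (edgeR FDR = 7.94e-08). Of the single shRNAs, shARID1A.4 gave 0.319 ± 0.00534 CPM, shARID1B.3 0.294 ± 0.0137, shARID1A.2 0.471 ± 0.261 and shARID1B.2 0.768 ± 0.130 (SD, n = 3). The log2 change with shARID1A.2 was -1.10 ± 0.32 (edgeR FDR = 0.0155), and the 2 ARID1B shRNAs differed by 1.36 log2 (edgeR FDR = 0.00355), a call lost in DESeq2 (1.38, FDR = 0.024).

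NTRK3, the receptor of NTF3, had 33 tested sites, all intronic and none above 2.15 CPM on average. The largest fall by the rule for named sites was at chr15:88119953-88120757, in an intron. Control gave 2.12, 2.18 and 2.20 CPM, shARID1A/B.2.3 0.591, 0.790 and 0.747 CPM and shARID1A/B.4.2 0.717, 1.06 and 1.39 CPM. The log2 change was -1.32 ± 0.19 (edgeR FDR = 2.04e-08). The call with shARID1A/B.4.2 alone (-1.04, edgeR FDR = 2.23e-04) was lost without shARID1A/B.4.2 replicate 1 (-0.78, edgeR FDR = 0.0199). That for the mean of the ARID1B shRNAs (-0.67, edgeR FDR = 0.00866) was lost in DESeq2 (FDR = 0.0508) and in 7 of 9 fits without 1 library. It was also lost with median-of-ratios size factors, without the filter and with only the groups compared. Both ARID1A shRNAs and shARID1B.2 lowered the site to 0.787 ± 0.109, 1.23 ± 0.183 and 0.997 ± 0.170 CPM, whereas shARID1B.3 gave 2.43, 1.61 and 1.55 CPM, on both sides of Control. The call with shARID1A.4 (-0.83, edgeR FDR = 0.00635) was lost in DESeq2 (FDR = 0.0289) and in 5 of 6 fits without 1 library, all but that without shARID1A.4 replicate 3 (edgeR FDR up to 0.0706), and that with shARID1B.2 without its replicate 1 (-0.99, edgeR FDR = 0.0127). The 2 ARID1B shRNAs differed by 0.92 log2 (edgeR FDR = 0.00227), a call lost in DESeq2 (FDR = 0.0191) and without shARID1B.2 replicate 1, shARID1B.2 replicate 3 or shARID1B.3 replicate 1. The site nearest to the annotated start, chr15:88131574-88132102, gave 0.635 ± 0.173 CPM in Control and a log2 change of -0.47 ± 0.29 (edgeR FDR = 0.296), and the most accessible per kb, chr15:88185782-88186098, 0.527 ± 0.115 CPM and -0.06 ± 0.30 (edgeR FDR = 0.932). Neither change was detectable at this depth.

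The start sites of the other receptors had no call. The NGFR site, chr17:49494874-49498180, holds 2 annotated starts with exon and UTR sequence, and Control gave 15.9, 13.5 and 19.1 CPM. With shARID1A/B.2.3 it gave 17.8, 13.5 and 17.8 CPM, which overlap with Control (log2 0.01, edgeR FDR = 0.983). With shARID1A/B.4.2 it gave 22.1, 19.5 and 20.5 CPM, all above Control (0.35 ± 0.11, edgeR FDR = 0.0143). The combined log2 change was 0.18 ± 0.10 (edgeR FDR = 0.202) and -0.06 when scaled on promoter sites. At SORT1, chr1:109397199-109399524, Control gave 25.0, 26.3 and 26.9 CPM and the combination libraries 27.4 to 31.5 CPM, higher in 6 of 6 libraries by a log2 change of 0.19 ± 0.08 that did not pass the test (edgeR FDR = 0.0858) and turned to -0.05 when scaled on promoter sites. The SORT1 site also holds exons and UTR of the neighbouring gene PSMA5, and its accessibility cannot be divided between them.

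For NTF3, the ligand of NTRK3, no change was detected at its start. The site at chr12:5430327-5434204, with an exon, UTR and 1 annotated start, gave 7.65, 6.90 and 7.5 CPM in Control. Every group average lay between 7.13 and 7.43 CPM, and the combined log2 change was -0.02 ± 0.10 (edgeR FDR = 0.938). The site that the deposited annotation places nearest to its NTF3 start, chr12:5482057-5482368, was weak, with 0.452 ± 0.179 CPM in Control and a log2 change of 0.09 ± 0.34 (edgeR FDR = 0.905).

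Per kb of site, Control accessibility at the sites nearest to the starts of the deposited annotation was 13.5 CPM per kb at BDNF, 11.8 at SORCS1, 11.2 at SORT1, 6.91 at NTRK2, 4.90 at NGFR, 1.45 at NTF3 and 1.2 at NTRK3. The BDNF, NTF3 and NTRK3 sites hold no GENCODE start of their gene, the nearest being 81, 11764 and 73831 bases away. At GENCODE starts, Control gave 1.9 CPM per kb for NTF3 and 3.61 for the 5′ start of NTRK3, which carries another name. Summed over all tested sites of a gene, Control gave 4.96 ± 0.199 CPM per kb for SORT1, 4.27 ± 0.218 for BDNF, 4.24 ± 0.710 for NGFR, 3.74 ± 0.203 for NTRK2, 2.49 ± 0.0663 for SORCS1, 1.42 ± 0.0568 for NTF3 and 1.24 ± 0.0545 for NTRK3 (SD, n = 3). BDNF and NGFR, which are neighbours in this order, did not differ beyond their spread, and NGFR overlapped with SORT1 and NTRK2 as well.

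**Figure D4:**
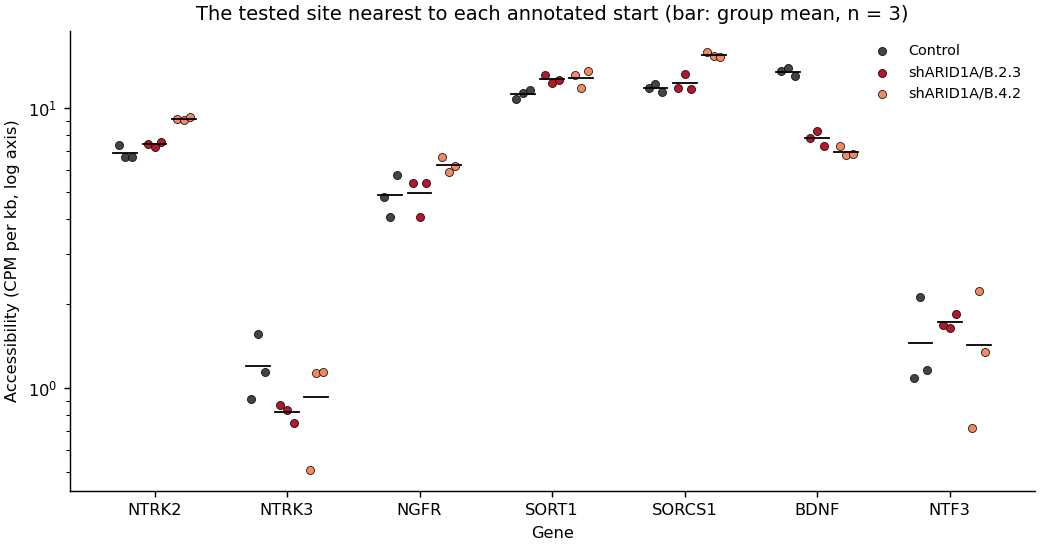
Accessibility (CPM per kb, log axis) of the tested site nearest to each gene's annotated start, with 1 point per library and a bar at the mean of 3 libraries, for Control and both combinations. The BDNF exon site is lower in both combinations; NTRK2 and SORCS1 are higher with shARID1A/B.4.2 (log2 0.41 and 0.39, but 0.09 and 0.06 when scaled on promoter sites), and the low NTRK3 and NTF3 sites overlap between groups. The BDNF, NTRK3 and NTF3 sites hold no GENCODE start of their gene.

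For each combination, shARID1A/B.2.3 closed 29 and opened 4 of the 233 sites (all tested sites 10.4% and 2.85%), and shARID1A/B.4.2 closed 22 and opened 5 (7.37% and 3.97%). Of the 27 sites closed on average, 17 were called with both combinations, 6 with shARID1A/B.2.3 only and 4 with shARID1A/B.4.2 only, counting the fall alone (63, 22.2 and 14.8%, beside 59.4, 28 and 8.59% of all closed sites). The direct comparison of the combinations called 8 sites lower and 4 higher with shARID1A/B.2.3 (all tested sites 3.79% and 1.43%). Of the 27 closed sites 5 differed between the combinations, 3 with the deeper fall in shARID1A/B.2.3; this is 18.5%, beside 16.7% of all closed sites.

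Silencing of ARID1A alone closed 17 sites and opened 1 (all tested sites 5.37% and 1.67%), and silencing of ARID1B alone closed 12 and opened 1 (3.53% and 1.39%). Of the 27 sites closed by combined silencing, 11 were closed with either gene alone, 5 with ARID1A only, 1 with ARID1B only and 10 with neither. In percent these are 40.7, 18.5, 3.7 and 37, and over all 36610 closed sites the same split was 24.3, 26.1, 8.27 and 41.4. The median log2 change of the 27 sites was -1.01 after combined silencing, -0.65 after ARID1A and -0.35 after ARID1B silencing, and 22 of 27 had the smaller fall with ARID1B. These medians and this count were not taken over all closed sites, so they do not set the 27 sites apart. Of all closed sites, too, more were closed with ARID1A only (26.1%) than with ARID1B only (8.27%). These comparisons share the Control libraries. ARID1A and ARID1B silencing were compared directly, which called 13 sites lower and 2 higher with ARID1A (all tested sites 3.69% and 1.05%).

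The combinations were lower than the mean of the 4 single-shRNA groups at 18 sites and higher at 1 (all tested sites 6.85% and 0.969%). SORCS1 held 15 of the 18 lower sites, BDNF 2 and NTRK2 1. Of the 27 closed sites 15 passed this test (55.6%, beside 56.6% of all closed sites). When the ARID1A and ARID1B changes were added, edgeR called a deviation of the combined change from that sum at 0 of 233 sites in either direction (all tested sites 0.376% lower and 0.14% higher), while 35 had an unadjusted p under 0.05.

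The calls were also split by shRNA. Of the 27 closed sites 8 were closed with both ARID1A shRNAs, 6 with shARID1A.2 only and 5 with shARID1A.4 only. These are 29.6, 22.2 and 18.5%, beside 23.6, 18.2 and 14.6% of all closed sites. Over all tested sites 4.54% were closed with shARID1A.2 and 4.17% with shARID1A.4. With both ARID1B shRNAs 5 of the 27 were closed, with shARID1B.2 only 3 and with shARID1B.3 only 8. These are 18.5, 11.1 and 29.6%, beside 11.7, 4.59 and 30.5% of all closed sites. Over all tested sites 1.84% were closed with shARID1B.2 and 4.88% with shARID1B.3. A call with 1 shRNA and not the other is no test of a difference. The difference itself passed at 4 of the 27 sites for ARID1A (14.8%) and at 10 for ARID1B (37%), where all closed sites gave 13.2% and 29.4%. Among all tested sites 1.84% were lower and 0.737% higher with shARID1A.2 than with shARID1A.4, and 2.96% lower and 4.25% higher with shARID1B.2 than with shARID1B.3.

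**Figure D5:**
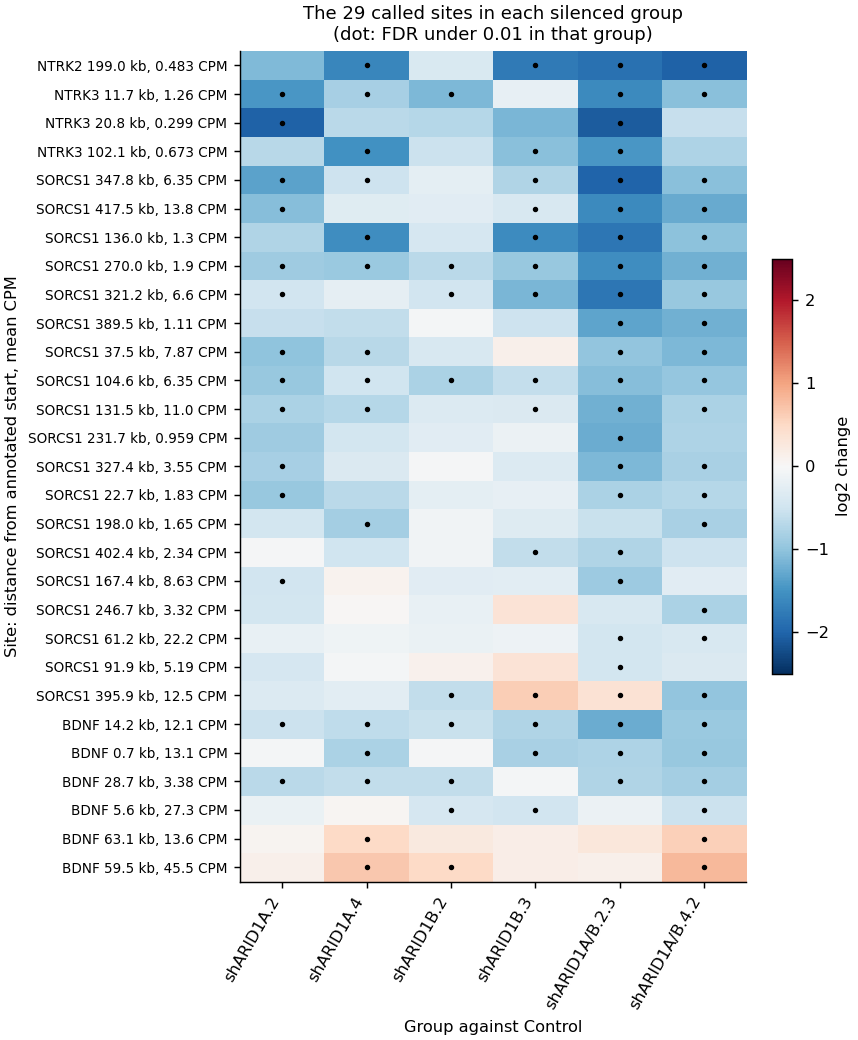
The 29 called sites (rows, with the distance from the annotated start and the mean CPM) in the 6 silenced groups (columns); colour is the log2 change against Control and a dot marks FDR under 0.01 in that group. The combinations carry the darkest blues in most SORCS1 rows; the row at 395.9 kb turns from red with shARID1A/B.2.3 to blue with shARID1A/B.4.2, and the BDNF row at 0.7 kb is blue with shARID1A.4, shARID1B.3 and both combinations.

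In sequence, the closed sites were poorer in GC than the rest. The median GC content of their central 300 bases was 40%, against 46.2% in the 206 other tested sites and 46.7% over all tested sites, and all closed sites of the genome had 43.7%. The GATA motif was in 9 of 27 closed windows (33.3%), in 18% of the other windows, in 17% of all tested sites and in 24.7% of all closed sites. In the same order, the homeobox motif was in 5 of 27 (18.5%), 7.77%, 7.87% and 14.1%, and the E-box CAGCTG in 5 of 27 (18.5%), 13.1%, 17.6% and 20.2%. The AP-1 motif was in 4 of 27 (14.8%), 13.6%, 10.9% and 14.3%, the cAMP response element core in 1 of 27 (3.7%), 1.94%, 2.91% and 2.88%, and the E-box CACGTG in 0 of 27, 4.37%, 4.15% and 3.62%. A match is a run of letters and does not show a bound factor.

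Other genes of the pathway were read from a list of 36 genes, among which BEX3 appears under its older symbol NGFRAP1. Their 714 tested sites held 87 closed (12.2%) and 25 opened (3.5%) after combined silencing, near the 10.3% and 3.43% of all tested sites, with a median log2 change of 0.02; scaled on promoter sites the counts were 126 and 6. Of the sortilin family members, SORL1, a sorting receptor, had 15 closed and 3 opened of 58 sites, SORCS2 3 and 2 of 23, and SORCS3 1 and 1 of 19. Partners of NGFR, such as LINGO1, had 14 closed and 5 opened of 116. Adaptors and effectors of TRK receptors had 36 closed and 11 opened of 222. The genes of precursor processing had 11 closed and 3 opened of 224.

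The genes whose summed accessibility varied most like that of a member over the 21 libraries were sought among 17677 genes. For SORCS1 they were ZFHX4-AS1 and KCNH5, with Pearson's r of 0.97 each. For BDNF they were PACRGL (0.90) and AGA (0.89), for NTRK2 VAPB and C14orf166 (0.91 each), for NTRK3 LOC100130452 (0.84) and HS3ST3A1 (0.83), for SORT1 TNPO3 (0.89) and CBL (0.87), and for NTF3 LOC102724080 (0.83) and ANKS1A (0.79). NGFR had too few tested sites to be compared. These are descriptions: the points are libraries of 7 groups and share their scaling and depth.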

How the data were processed

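The data are 21 ATAC-seq libraries of SK-N-BE(2) cells. Per the labels, the reads were aligned to GRCh38; which aligner and peak caller were used, and whether reads were filtered or shifted to the transposase cut, is not given in the sources used here. For each silenced group against Control, the authors deposited raw read counts per library over 1 consensus set of sites, with a HOMER annotation of each site. The deposited tables also held normalised counts and the authors' DESeq2 results, which were not used. The Control counts were identical in all tables.

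Raw counts were analysed with edgeR 4.0.16 under R 4.3.3: filterByExpr (minimum count 10, leaving 357029 of 367900 sites), TMM scaling, 1 model of the 7 group means without covariates, the two-sided quasi-likelihood test and Benjamini-Hochberg adjustment over all tested sites. TMM rests on a majority of sites being equal between libraries. CPM is the count per 1000000 of the scaled total. Group contrasts, and differences between shRNAs, genes and combinations, came from the same fit, and the contrasts of each combination with the shRNAs in its name were added after the values were seen. Counts with known changes at combined silencing were simulated over 348571 sites, of which 50 were changed per direction and size. The test recovered 70% of falls and 82% of rises of 1 log2, and 98% and 100% of those of 2 log2. The changed sites were drawn only from those above a minimum expected count, and the simulated spread followed the fitted trend. Recovery at weaker sites was therefore not tested.

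Named sites were, per gene, the tested site nearest to the annotated start, that with the highest CPM per kb, and, among called sites of at least 1 CPM with all combination libraries on 1 side of all Control libraries, the 2 largest falls and the largest rise. For likeness, CPM was summed per gene with at least 3 tested sites and 5 CPM, and log2 sums were correlated. Some genes of the pathway list are counted in its totals but not reported here. The member genes and all lists were chosen with earlier results of these data known. Positions were annotated with GENCODE release 44, and sequences were read from GRCh38 or RefSeq promoters. Alternatives were other scalings, no filter, DESeq2 1.42.0, other thresholds, fits on fewer groups, a replicate block, leaving out libraries and other ways to assign sites.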

Additional observations from a re-analysis of the deposited data

Results flagged for a closer look

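At 10 of the sites described above the effects of 2 arms differed in a direct test within the same edgeR model, and these differences are listed here with no cause, which was not tested. In SORCS1, the intron 5 site was lower with ARID1A than with ARID1B silencing by a log2 difference of -0.33 (edgeR FDR = 8.93e-04) and lower with shARID1A.2 than with shARID1A.4 by -0.76 (edgeR FDR = 1.22e-07). The first of these calls was lost without shARID1B.2 replicate 1 (-0.28, edgeR FDR = 0.0126) or shARID1B.3 replicate 2 (-0.29, edgeR FDR = 0.01).

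The SORCS1 intron 3 site differed in 4 ways. It was lower with ARID1A than with ARID1B silencing (-0.43, edgeR FDR = 2.80e-04), with shARID1A.2 than with shARID1A.4 (-0.83, edgeR FDR = 3.96e-06) and with shARID1A/B.2.3 than with shARID1A/B.4.2 (-0.95, edgeR FDR = 3.40e-07). It was higher with shARID1B.2 than with shARID1B.3 (0.52, edgeR FDR = 8.84e-04; without shARID1B.3 replicate 1 0.45, edgeR FDR = 0.0184). The SORCS1 start site was lower with shARID1A/B.2.3 than with shARID1A/B.4.2 (-0.33, edgeR FDR = 0.00863), a call lost without any 1 of 5 of the 6 combination libraries, all but shARID1A/B.2.3 replicate 2 (edgeR FDR between 0.0193 and 0.0339). It was also lost when scaled on promoter sites (-0.14, edgeR FDR = 0.222).

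The SORCS1 intron 4 site, at which the combinations moved in opposite directions, was higher with shARID1A/B.2.3 than with shARID1A/B.4.2 by 1.35 (edgeR FDR = 1.27e-17) and lower with shARID1B.2 than with shARID1B.3 by a log2 difference of -1.22 (edgeR FDR = 3.31e-16). It was also lower with ARID1A than with ARID1B silencing (-0.31, edgeR FDR = 0.00352), a call lost in 8 of the 12 fits that left out 1 library (edgeR FDR between 0.0101 and 0.0227), namely without shARID1A.2 replicate 2 or 3, shARID1A.4 replicate 1 or 2, shARID1B.2 replicate 1 or 3, or shARID1B.3 replicate 1 or 2. The ARID1B mean at this site averages -0.61 with shARID1B.2 and 0.61 with shARID1B.3 against Control, and describes neither shRNA. The weak NTRK2 intron site was higher with shARID1B.2 than with shARID1B.3 (1.36, edgeR FDR = 0.00355). This call was lost without shARID1B.2 replicate 1 or 2, or shARID1B.3 replicate 1 or 2 (edgeR FDR between 0.0129 and 0.029).

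In BDNF, the transcript end was higher with ARID1A than with ARID1B silencing (0.38, edgeR FDR = 6.27e-06). It was also higher with shARID1A/B.2.3 than with shARID1A/B.4.2 (0.39, edgeR FDR = 0.0018), a call lost without shARID1A/B.2.3 replicate 2 (0.24, edgeR FDR = 0.148), shARID1A/B.4.2 replicate 1 (0.35, edgeR FDR = 0.0277) or shARID1A/B.4.2 replicate 2 (0.38, edgeR FDR = 0.0148). The exon site was higher with shARID1A.2 than with shARID1A.4 (0.76, edgeR FDR = 4.03e-08) and with shARID1B.2 than with shARID1B.3 (0.79, edgeR FDR = 1.13e-09). The opened site at the alternative starts was lower with shARID1A.2 than with shARID1A.4 (-0.57, edgeR FDR = 1.17e-07) and with shARID1A/B.2.3 than with shARID1A/B.4.2 (-0.69, edgeR FDR = 5.85e-11), and higher with shARID1B.2 than with shARID1B.3 (0.32, edgeR FDR = 0.00267). The last of these was lost without shARID1B.2 replicate 1 (0.29, edgeR FDR = 0.0297), shARID1B.2 replicate 3 (0.31, edgeR FDR = 0.0159) or shARID1B.3 replicate 1 (0.27, edgeR FDR = 0.0449). The opened BDNF promoter site was lower with shARID1A.2 than with shARID1A.4 (-0.43, edgeR FDR = 0.00571), a call lost without shARID1A.2 replicate 2 or 3, or shARID1A.4 replicate 1 or 2 (edgeR FDR between 0.0162 and 0.149), when scaled on promoter sites (-0.32, edgeR FDR = 0.0401) and with library totals (-0.36, edgeR FDR = 0.0142). In NTRK3, the named intron site was lower with shARID1B.2 than with shARID1B.3 (-0.92, edgeR FDR = 0.00227), with -0.68 (edgeR FDR = 0.0749) without shARID1B.3 replicate 1. No test for single outlying libraries was run. The chi-square of counts between 2 libraries of a group was taken over sites, per degree of freedom. It was 2.51 and 2.23 for pairs with shARID1A/B.2.3 replicate 2, against 1.09 for replicates 1 and 3. For pairs with Control replicate 2 it was 1.84 and 2.05, against 1.09. Pairs of the other groups gave 1.08 to 1.62. Depth also differed between libraries, and its part in these values was not tested.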

How the results depend on the processing

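Of the counts of called sites, those of closed sites under DESeq2, median-of-ratios size factors, library totals, no filter and fits of only the groups compared stayed within 1.5 times the reported ones; the other values follow, and the cause of a change was not tested unless the setting itself shows it. An added minimum of 1 log2 left 15 closed and 0 opened sites after combined silencing, 4 and 0 after ARID1A, 1 and 0 after ARID1B silencing, 0 lower and 0 higher than the single shRNAs, and 27 closed and 2 opened pathway sites. An FDR under 0.05 gave 6, 3 and 3 opened sites for combined, ARID1A and ARID1B silencing, 4 higher than the single shRNAs and 49 opened pathway sites. Counting only sites within 100000 bases of the start, which leaves fewer sites, gave 10, 6 and 4 closed sites, and 7 lower and 0 higher than the single shRNAs. Scaled on promoter sites, 47 sites were closed and 1 opened after combined silencing, 30 and 0 after ARID1A silencing, 0 opened after ARID1B silencing, 0 higher than the single shRNAs and 6 pathway sites opened. This scaling lowered the median over all tested sites to -0.20, -0.20 and -0.14 log2 for combined, ARID1A and ARID1B silencing, from 0.03, -0.01 and -0.01. It reversed the combined log2 change at the start sites of NGFR (-0.06), SORT1 (-0.05) and SORCS1 (-0.01), at the BDNF promoter with the cAMP response element core (-0.02) and at the NTF3 site nearest to its annotated start (-0.15). Opened sites after combined silencing numbered 5 with library totals (3 higher than the single shRNAs), 4 without the filter and 4 in DESeq2 (0 higher). For ARID1B silencing 2 were opened without the filter and 2 with only the groups compared. Sites in the GENCODE gene bodies, an alternative chosen after seeing the data, gave 27 closed and 2 opened for ARID1A silencing.

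Leaving out each library in turn gave 21 to 26 closed and 2 to 5 opened sites for combined silencing, 13 to 17 and 1 to 3 for ARID1A, 8 to 11 closed and 1 opened for ARID1B silencing, 15 to 19 lower and 0 to 3 higher than the single shRNAs, and 64 to 79 closed and 18 to 37 opened pathway sites. The fewest closed sites in the 3 silencing comparisons came without Control replicate 2. Opened sites after combined silencing were 5 without shARID1A/B.2.3 replicate 3, and 4 without shARID1A/B.2.3 replicate 1 or shARID1A/B.4.2 replicate 2. After ARID1A silencing 3 were opened without shARID1A.2 replicate 2. Sites higher than the single shRNAs were 3 without shARID1A.2 replicate 1, and 0 without shARID1A.2 replicate 2 or 3, shARID1B.2 replicate 1, shARID1A/B.2.3 replicate 1 or shARID1A/B.4.2 replicate 2. Over 100 log2 changes and differences at the described sites, 91 of them called, leaving out a library kept direction and call in 685 fits, ended a call in 73, made 1 in 6 and reversed the direction in 10; the other settings gave 637, 25, 9 and 6. At the NTRK3 site with the most CPM per kb, leaving out a library gave -0.18 to 0.17, with reversals at 0.17 (without Control replicate 2), 0.09 (shARID1A/B.2.3 replicate 2) and 0.09 (shARID1A/B.4.2 replicate 3). At the NTF3 start site it gave -0.03 to 0.03, with reversals at 0.01 (leaving out Control replicate 1 or shARID1A/B.2.3 replicate 1), 0.03 (shARID1A/B.2.3 replicate 2 and shARID1A/B.4.2 replicate 2) and a further reversal at 0.00 without the filter. At the NTF3 site nearest to its annotated start it gave -0.12 to 0.49, with reversals at -0.07 (Control replicates 1 and 3) and -0.12 (shARID1A/B.4.2 replicate 2).

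Replicate numbers were not taken to pair the libraries: over 181893 sites, the 63 pairs of libraries with the same number had correlations of deviations from -0.288 to 0.479 (median 0.01), and 12 exceeded 0.1. In 1 of 21 pairs of groups, Control and shARID1A/B.2.3, all same-number correlations did (0.177, 0.479 and 0.189). A fit with the replicate block gave 28 closed and 3 opened sites for combined silencing, 20 and 1 for ARID1A, 12 and 2 for ARID1B silencing, and 18 lower and 1 higher than the single shRNAs; shARID1A/B.2.3 alone closed 30 and opened 4. It made the NTRK2 promoter change a call (0.26, edgeR FDR = 0.00494) and changed no other call at the described sites. Depth limits calls at the many sites under 1 CPM, and a rise near the size of the scaling shift cannot be told apart from it.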

Other observations

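The 5′ start of NTRK3, the TrkC receptor, was among the sites that carry another name in the deposited annotation, since the antisense gene NTRK3-AS1 has a closer start there. The site, chr15:88254522-88258699 (GRCh38), gave 16.1, 14 and 15.2 CPM in Control. It measured 13.6 ± 1.28 CPM with shARID1A/B.2.3 and 18.4 ± 0.175 CPM with shARID1A/B.4.2 (SD, n = 3), on either side of the Control mean of 15.1 CPM. The combined log2 change was 0.07 (edgeR FDR = 0.682), while the combinations differed by -0.44 (edgeR FDR = 9.40e-04). Of the single shRNAs shARID1A.4 opened the site to 19.5 ± 1.88 CPM (log2 0.37, edgeR FDR = 0.00734) and was higher than shARID1A.2, whose log2 difference from it was -0.54 (edgeR FDR = 1.10e-04). The site was described after its values were seen, and other scalings were not run for it.

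Nearest-gene names missed part of the chromatin inside these genes. The GENCODE gene bodies of the 7 genes held 254 sites, of which 170 carried the name of a member and 84 another name, and 67 sites with a member name lay outside the bodies. In the NTRK2 body 13 of 23 sites were named LOC102724605, in that of SORCS1 29 were named LOC102724439, and in that of NTRK3 19 were named NTRK3-AS1 and 13 LOC101929724. Of the 247 tested sites in the bodies, 39 were closed and 2 opened after combined silencing, where 10.3% and 3.43% of all tested sites were. Over all tested introns the shares were 12% and 2.09%. The calls were 24 closed of 131 sites in SORCS1, 5 closed and 1 opened of 21 in NTRK2, 5 closed of 64 in NTRK3, 3 closed and 1 opened of 10 in BDNF and 2 closed of 3 in NGFR. SORT1 and NTF3 had no call among 6 and 12 sites.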
